A study of Mus musculus with 8 samples.

Results

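Complex I of the respiratory chain takes electrons from NADH, passes them to ubiquinone and pumps protons across the inner mitochondrial membrane. Most of its subunits are encoded in the nucleus and imported, while the membrane core is encoded in mitochondrial DNA. The genes described here are all those of the mouse gene list whose symbol begins with Ndufa, Ndufb, Ndufc, Ndufs or Ndufv, without the Ndufaf assembly factors: 39 of 32285 genes, on 16 chromosomes. They comprise the 7 nuclear core subunits, which together carry the flavin and the iron-sulfur clusters, 9 accessory subunits of the matrix arm and 20 of the membrane arm. The last 3 are Ndufab1, the mitochondrial acyl carrier protein, and Ndufa4 and Ndufa4l2, which bear the name but are no longer counted as complex I subunits (Ndufa4 belongs to cytochrome c oxidase). Ndufb1-ps is used under the symbol in the files.

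The cells were activated mouse CD8 T cells from 3 donor mice, grown with bone marrow stromal cells (BMSCs) whose mitochondria carried dsRed. T cells with dsRed (MitoPositive) were sorted from those without (MitoNegative). They were sequenced at once (culture, d0) or transferred into B6 mice bearing B16KVP tumors and recovered from spleen and tumor on d7, so the arm names at d7 give the state at transfer. This gave 6 groups of 3 samples, with each donor once in a group. Hashtag antibodies marked the samples, all 6 culture samples sharing a library and the d7 samples of a donor another. The donor cells came from spleen; the labels give no age or genotype for donors or recipients. What a group shares beyond this, such as the activation and the BMSC culture, is common to all 6 groups. In the deposited list the arms of a donor have different host codes at d7, so arm and host cannot be told apart there, while tumor and spleen cells of an arm share a code; whether a code stands for 1 mouse or several is not said.

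Expression was measured with a droplet method that tags the 3′ end of transcripts and counts unique molecular identifiers (UMIs), summed here per sample from 16075 cells. Samples held 30 to 3380 cells and 315910 to 26503756 UMIs; the smallest were MitoNegative tumor of donor 1 (30 cells) and MitoPositive spleen of donor 3 (48 cells). All 6 T cell markers were present in every group (summed level 2932 to 5704 counts per 1000000 UMIs, CPM). Stromal markers summed to 0 to 0.73 CPM in culture, with Col3a1 and Cxcl12 at 0. The labels give 2 maps of the culture hashtags, and the odd-numbered ones were taken as MitoPositive, as in the deposited hashtag list. The libraries shared 1 to 9 barcodes per pair.

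Genes were compared with the quasi-likelihood test of edgeR, called at a Benjamini-Hochberg adjusted p under 0.05 over all tested genes. Of the 39 genes, 38 passed the filter on low counts in every fit. Ndufa4l2, a paralogue of Ndufa4 known for its induction in hypoxia, had 1 UMI in all, in MitoPositive tumor cells of donor 2, and 0 in the other 17 samples. A count of 0 allows up to 3 UMIs in a sample, which is 0.113 to 9.50 CPM here and covers counting error only. Fold changes are on the log2 scale and ± gives the SE; levels are CPM, and ± gives the SD of 3 samples.

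Together the 39 genes made up a larger share of UMIs after transfer than in culture. In culture they held 0.458%, 0.495% and 0.490% of UMIs in the MitoNegative samples of donors 1, 2 and 3 and 0.481%, 0.505% and 0.542% in the MitoPositive ones. In spleen they held 0.922%, 0.867% and 0.755% in the MitoNegative arm and 0.684%, 0.706% and 0.636% in the MitoPositive arm. In tumor they held 0.829%, 0.840% and 0.945% in the MitoNegative arm and 0.830%, 0.948% and 0.813% in the MitoPositive arm. Every d7 sample lay above every culture sample. In spleen the arms did not overlap, whereas in tumor and in culture they did. In such sums, fewer cells with these transcripts and less RNA per cell cannot be told apart.

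**Figure D1:**
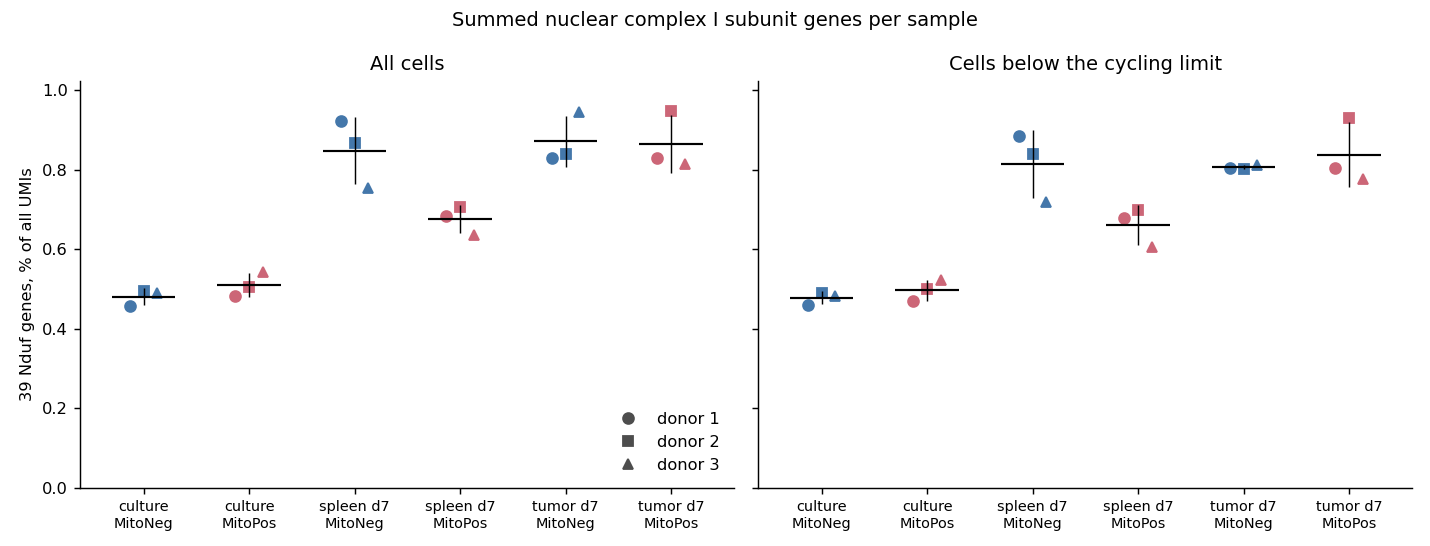
Share of all UMIs (%, y axis) held by the 39 genes in each sample, for all cells (left) and for cells in which the cycling genes held under 0.3% of UMIs (right). Points are samples (shape gives the donor, blue MitoNegative, red MitoPositive), lines the mean and SD of 3. The spleen arms lie apart in both panels, at 0.755% to 0.922% against 0.636% to 0.706% in all cells.

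The share of cycling cells moved with these groups. Cells in which a list of 28 S phase and mitosis genes held at least 0.3% of UMIs made up 0.545% to 1.47% of MitoNegative and 2.95% to 5.61% of MitoPositive cells in culture. In spleen they made up 11.5% to 24.1% and 2.39% to 6.25%, and in tumor 9.52% to 41.4% and 17.0% to 24.7%. The 39 genes held a larger share of UMIs in the cycling cells of each d7 sample than in its other cells. In the other cells alone the share was still 0.718% to 0.884% in MitoNegative and 0.605% to 0.700% in MitoPositive spleen samples, against 0.459% to 0.490% and 0.469% to 0.523% in culture.

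The largest differences separated d7 spleen from culture. In the MitoNegative arm 33 of the 38 genes rose, with a median log2 fold change of 1.00, against 0.04 over all 12680 genes tested; 0 fell. Of all genes tested, 31.8% rose and 27.4% fell. Among MitoPositive cells 25 rose and 0 fell, with a median of 0.53 against -0.01 over all genes; 22.3% of all genes rose and 20.7% fell. All 25 were among the 33 called in the MitoNegative arm, 75.8% of those. Culture and d7 cells were in different libraries, so time, place and library cannot be told apart. The MitoPositive count fell to 12 without donor 1 and to 9 without donor 2. The share of all genes called in those fits is not given here. Myeloid markers moved with this change: their sum was 65.3 to 77.9 CPM in MitoNegative culture and 184 to 290.4 CPM in MitoNegative spleen samples, and 89.2 to 112.6 CPM against 230.2 to 361 CPM in the MitoPositive arm. In culture C1qa, C1qb and C1qc were at 0, whereas all 10 markers were present in spleen. Without cells holding 3 or more myeloid or melanoma UMIs, the medians of the 38 genes were 1.03 and 0.64.

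Ndufa4 had the largest fold change in both arms. Its level was 146, 183 and 162 CPM in MitoNegative culture samples of donors 1, 2 and 3, and 920.4, 775 and 684 CPM in the matching spleen samples. MitoPositive samples had 176, 194 and 208 CPM in culture and 534, 552 and 456 CPM in spleen. Every spleen sample exceeded every culture sample. The rise was 2.45 ± 0.15 (edgeR adjusted p = 3.35e-10) in the MitoNegative and 1.54 ± 0.15 (edgeR adjusted p = 2.57e-07) in the MitoPositive arm. Such gaps between culture and spleen samples were common. In CPM, 30 of the 38 genes were higher in spleen without overlap in the MitoNegative arm and 2 were lower. In the MitoPositive arm 20 were higher and 3 lower. Over all genes 29.0% were higher and 37.3% lower without overlap in the MitoNegative arm, and 18.3% and 31.6% in the MitoPositive arm.

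The accessory subunits of the membrane arm, which surround the proton pumps, rose in 19 of 20 cases in the MitoNegative arm (median 1.04) and 15 of 20 in the MitoPositive arm (median 0.58). Ndufc1, a small subunit next to the mitochondrially encoded pump ND2, went from 75.3, 89.5 and 84.9 CPM to 229.8, 204 and 198 CPM in the MitoNegative samples of donors 1, 2 and 3, a rise of 1.51 ± 0.14. In the MitoPositive samples it went from 86.3, 91.8 and 100.1 CPM to 157, 153 and 149 CPM, a rise of 0.86 ± 0.14. Ndufb2 went from 62.2, 68.8 and 66.6 CPM to 172, 167 and 129 CPM (1.42 ± 0.13) in the MitoNegative arm. Among MitoPositive samples it went from 66.5, 71.4 and 77.7 CPM to 120.0, 132 and 120.3 CPM (0.91 ± 0.14). Neither gene's culture and spleen samples overlapped in either arm.

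Ndufa11, an accessory subunit in the middle of the membrane arm, went from 76.8, 86.4 and 95.3 CPM to 201, 209 and 168 CPM in the MitoNegative arm (1.34 ± 0.14). Ndufa1, needed early in membrane arm assembly, went from 141, 149 and 178 CPM to 258, 273 and 282 CPM in the MitoPositive arm (0.89 ± 0.14). Both again left a gap between culture and spleen samples. Also among the 10 largest rises in the MitoNegative arm were Ndufb7 (1.43 ± 0.16), Ndufb8 (1.33 ± 0.15) and Ndufab1 (1.33 ± 0.17). The 10 largest in the MitoPositive arm also held Ndufab1 (0.74 ± 0.18) and Ndufa3 (0.67 ± 0.12). Ndufa10, which resembles nucleoside kinases, was the membrane-arm subunit that passed in neither arm (0.05 ± 0.09 and -0.10 ± 0.10).

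Of the 9 accessory subunits of the matrix arm, 7 rose in the MitoNegative arm (median 0.65) and 6 in the MitoPositive arm (median 0.45). Ndufs6, a zinc-binding subunit, went from 81.7, 92.9 and 90.4 CPM to 216, 203 and 176 CPM in the MitoNegative and from 83.2, 86.4 and 98.1 CPM to 149, 166 and 196 CPM in the MitoPositive arm (1.34 ± 0.13 and 1.00 ± 0.13). Ndufa12, which replaces an assembly factor late in assembly, went from 48.7, 61.6 and 56.7 CPM to 153, 133 and 116 CPM in the MitoNegative arm (1.44 ± 0.15), and rose by 0.87 ± 0.15 in the MitoPositive arm. Ndufa5 went from 66.1, 70.9 and 75.6 CPM to 119, 142 and 139 CPM in the MitoPositive arm (1.03 ± 0.16), and by 1.30 ± 0.15 in the MitoNegative arm. In these 3 genes culture and spleen samples did not overlap. Ndufa6 and the membrane-arm gene Ndufa10 were lower in CPM in spleen than in culture in all 3 donors of both arms, without overlap. Ndufa6 was at 226 ± 4.35 CPM in MitoNegative culture and 206 ± 2.14 CPM in MitoNegative spleen samples. Its fitted fold changes, after normalization between samples (TMM), were 0.02 ± 0.10 in the MitoNegative and 0.01 ± 0.10 in the MitoPositive arm.

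The core subunits had lower medians than the membrane-arm genes: 5 of 7 rose in the MitoNegative arm (median 0.44) and 2 of 7 in the MitoPositive arm (median 0.17). The difference between the role groups was not tested. Ndufs8 and Ndufs7, which hold iron-sulfur clusters close to the ubiquinone site, rose by 1.08 ± 0.12 and 0.87 ± 0.12 in the MitoNegative and by 0.51 ± 0.13 and 0.81 ± 0.13 in the MitoPositive arm. Ndufs7 in MitoPositive cells went from 67.7, 76.2 and 77.1 CPM to 122, 127 and 95.0 CPM, with no overlap. Ndufv1, which binds NADH and the flavin, Ndufv2 and Ndufs3 rose by less in the MitoNegative arm (0.39 ± 0.16, 0.57 ± 0.13 and 0.44 ± 0.14). Among MitoPositive cells they did not pass (0.17 ± 0.17, 0.15 ± 0.14 and 0.35 ± 0.15). Ndufs1, the largest subunit, passed in neither arm (0.06 ± 0.11 and 0.07 ± 0.11).

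**Figure D2:**
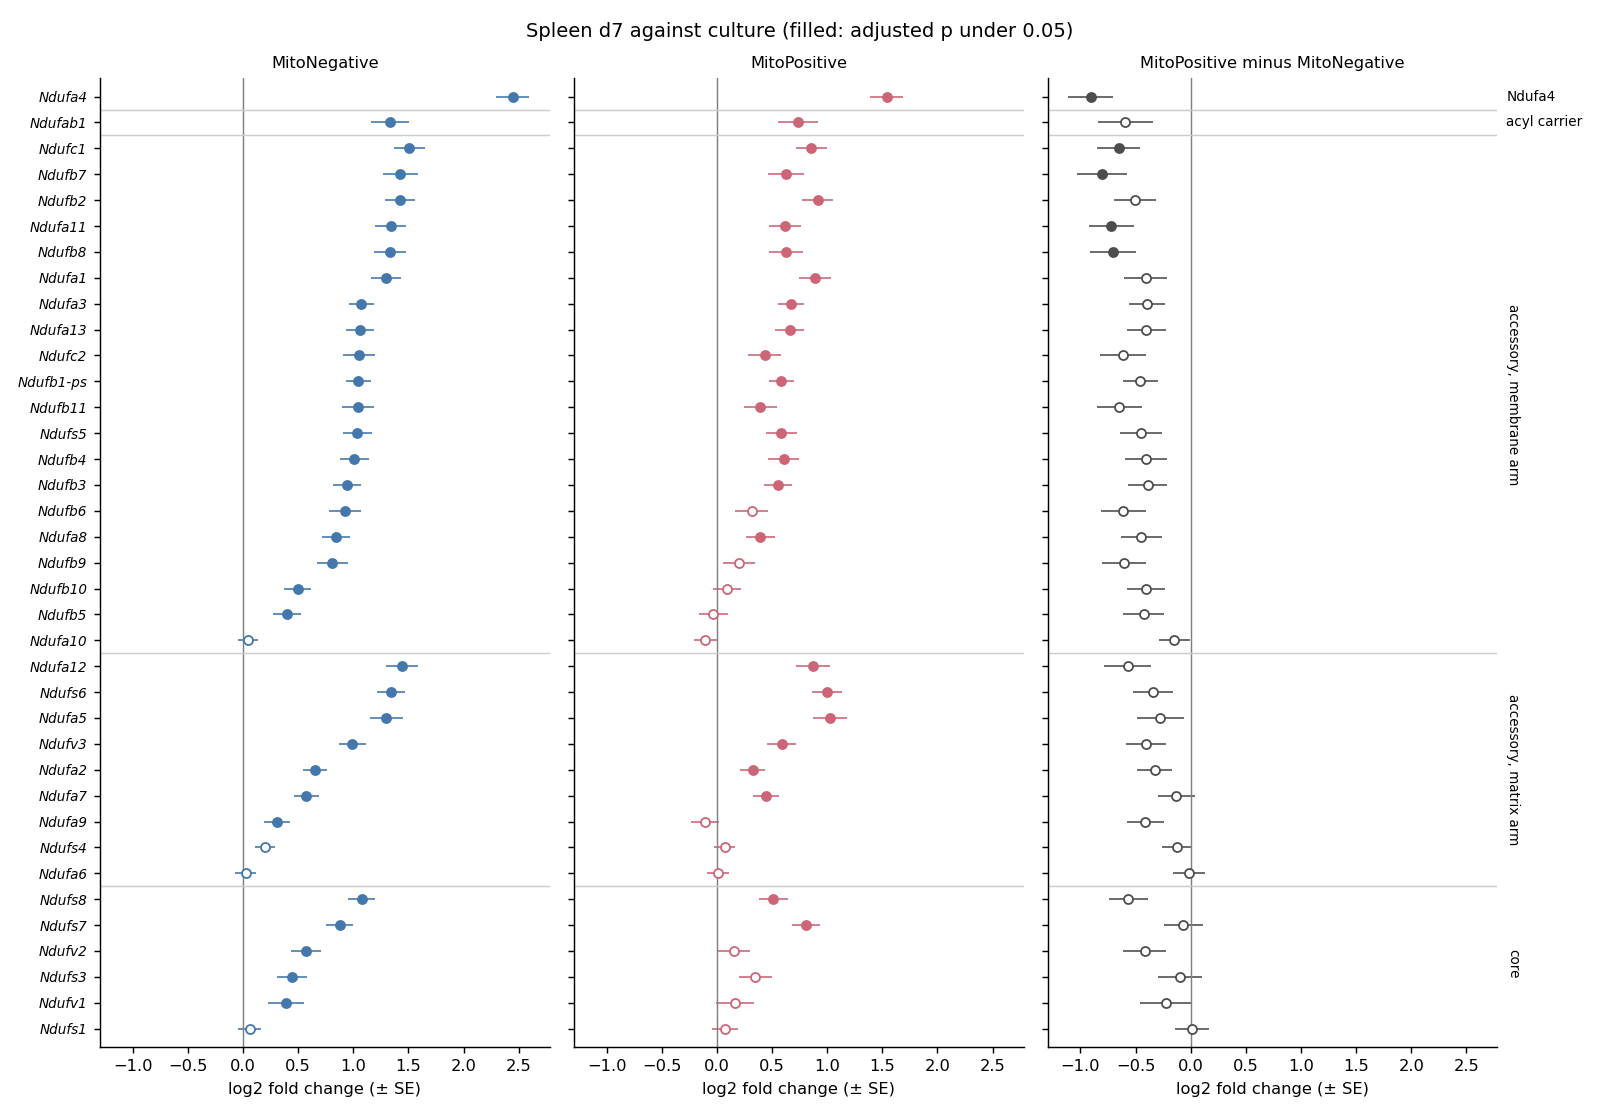
Log2 fold change of d7 spleen against culture (x axis, ± SE) for 37 of the 38 tested genes, grouped by role, in the MitoNegative arm, the MitoPositive arm, and as the difference of the arms. Filled points have an edgeR adjusted p under 0.05: 33 in the first panel, 25 in the second, 5 in the third, where 36 of 37 points lie left of 0.

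The spleen rise was smaller in the MitoPositive arm for 37 of 38 genes, with a median difference between the arms' log2 fold changes of -0.41, against -0.01 over all genes. For 5 genes the difference passed the test, all in that direction; 2.00% of all genes differed upwards and 5.24% downwards. They were Ndufa4 (-0.91 ± 0.21, edgeR adjusted p = 0.00851), Ndufb7 (-0.80 ± 0.22), Ndufa11 (-0.72 ± 0.20), Ndufb8 (-0.70 ± 0.21) and Ndufc1 (-0.65 ± 0.19). Adjusted p was 0.0349, 0.0355, 0.0496 and 0.0472 for the last 4 by the same edgeR test. At an unadjusted p under 0.05 there were 25 genes, but the number over all genes at that limit is not given here.

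The fold changes between arms had opposite signs in culture and spleen for each of the 5 genes: 0.27 and -0.61 for Ndufa4, 0.27 and -0.53 for Ndufb7, 0.34 and -0.37 for Ndufa11, 0.27 and -0.43 for Ndufb8, and 0.20 and -0.44 for Ndufc1. The genes were picked by the difference of such values, which favours opposite signs, so the signs are no test of a part from culture. None of the 5 passed between arms in culture (edgeR adjusted p 0.0725 for Ndufa11 to 0.221 for Ndufc1). In spleen only Ndufa4 passed. Ndufb7, near the tip of the membrane arm, was at 139, 161 and 178 CPM in MitoNegative and 165, 189.8 and 206 CPM in MitoPositive culture samples. In spleen it was at 434, 394 and 318 CPM in the MitoNegative and 294, 278 and 203 CPM in the MitoPositive arm, with no overlap. Ndufb8 was at 71.7, 88.6 and 83.3 CPM and at 82.6, 93.3 and 109.6 CPM in culture. In spleen it was at 200.2, 184 and 159 CPM against 143, 140.1 and 108 CPM, again with no overlap. Ndufa11 did overlap in spleen, at 201, 209 and 168 CPM against 138, 149 and 177 CPM.

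The core genes given here and the acyl carrier did not pass in this comparison of arms: Ndufs8 -0.56 ± 0.18, Ndufv2 -0.42 ± 0.20, Ndufv1 -0.23 ± 0.24, Ndufs3 -0.10 ± 0.20, Ndufs7 -0.07 ± 0.18, Ndufs1 0.01 ± 0.16 and Ndufab1 -0.59 ± 0.25. All 28 cycling genes passed with the same sign (median -3.39). With cycling cells left out the median of the 38 genes was -0.39 and 1 gene passed, while calls over all genes fell from 664 to 209 lower. The count was 0 without donor 1, 0 without donor 2 and 12 without donor 3, and 2 without samples under 50 cells. Without the share of all genes called in these fits, the counts cannot be read as shifts of these genes alone. With the other culture hashtag map (1 to 3 MitoPositive, and no donor block, since that map names no donors) 0 genes passed by edgeR, 0 had an unadjusted p under 0.05, and the median was -0.18. This fit was added after seeing the data.

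**Figure D3:**
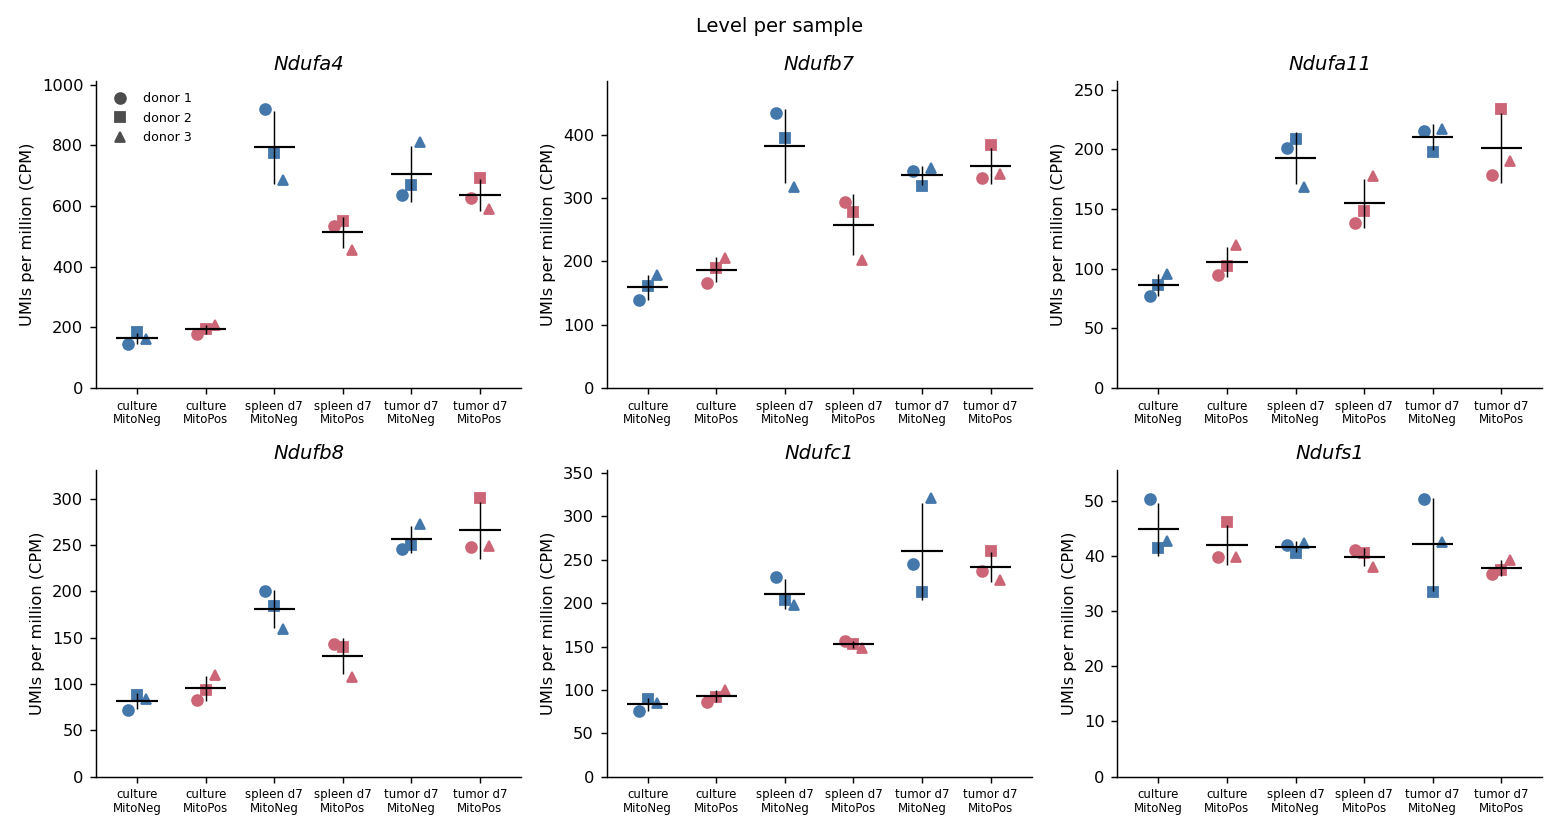
Level (CPM, y axis) of the 5 genes whose spleen rise differed between arms, and of Ndufs1, in every sample; symbols as above, lines the mean and SD of 3. Ndufa4 reaches 920.4 CPM in MitoNegative spleen and 552 CPM at most in MitoPositive spleen, whereas Ndufs1 stays between 33.4 and 50.4 CPM in all 18 samples.

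To show the sequence at the start of these 5 genes, the 150 bases before their transcription starts are given. Those of Ndufa6, whose fitted level hardly moved between culture and spleen, are shown with them (RefSeq starts, GRCm38.p6, each 5′ to 3′ on the gene's strand). Capitals mark the core motif of the respiratory gene regulator NRF1, GCGCATGC, on either strand.
Ndufa4, chr6:11907451-11907600, minus strand: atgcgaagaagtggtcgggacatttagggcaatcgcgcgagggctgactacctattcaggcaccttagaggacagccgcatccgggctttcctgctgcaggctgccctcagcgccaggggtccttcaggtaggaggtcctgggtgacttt
Ndufb7, chr8:83566608-83566757, plus strand: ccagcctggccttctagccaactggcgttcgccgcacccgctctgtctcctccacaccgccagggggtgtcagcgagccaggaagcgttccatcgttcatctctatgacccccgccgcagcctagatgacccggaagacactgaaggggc
Ndufa11, chr17:56717612-56717761, plus strand: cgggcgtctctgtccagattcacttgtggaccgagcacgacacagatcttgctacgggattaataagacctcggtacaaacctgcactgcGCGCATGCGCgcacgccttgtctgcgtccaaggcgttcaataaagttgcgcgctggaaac
Ndufb8, chr19:44555443-44555592, minus strand: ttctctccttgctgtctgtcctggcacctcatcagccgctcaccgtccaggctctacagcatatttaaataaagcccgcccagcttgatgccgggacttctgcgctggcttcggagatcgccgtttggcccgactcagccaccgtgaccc
Ndufc1, chr3:51408956-51409105, minus strand: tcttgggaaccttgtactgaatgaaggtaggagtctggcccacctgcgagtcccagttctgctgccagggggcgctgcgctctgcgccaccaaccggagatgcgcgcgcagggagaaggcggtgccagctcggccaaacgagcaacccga
Ndufa6, chr15:82354292-82354441, minus strand: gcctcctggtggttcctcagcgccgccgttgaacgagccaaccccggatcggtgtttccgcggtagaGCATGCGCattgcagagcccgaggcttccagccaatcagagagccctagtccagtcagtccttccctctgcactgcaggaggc

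Of the 39 genes, 33 matched a RefSeq promoter entry of 300 bases (250 before and 50 after the start); Ndufa2, Ndufa4l2, Ndufb1-ps, Ndufb9 and Ndufs1 were among the others. The NRF1 core stood in 3 of the 33 (9.09%: Ndufa11, Ndufa6 and Ndufa8) and in 3.05% of 27025 genes with an entry. In Ndufa11 the matches on both strands overlap in 1 palindromic run. The ETS motif CCGGAAGT, bound by GABP, stood in 1 of 33 (3.03%, Ndufs3), against 4.31% of all. The YY1 core AAGATGGC stood in 7 of 33 (21.2%), against 3.19% of all, in each of the 7 after the start and on the gene's strand. These were Ndufa3, Ndufa9, Ndufb8, Ndufc1, Ndufs4, Ndufs6 and Ndufs7. Both strands were searched, and the 3 motifs do not overlap here.

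Within the spleen, all 38 genes had lower fitted levels in the MitoPositive than in the MitoNegative arm, with a median log2 fold change of -0.30 against 0.01 over all 11862 genes. Only Ndufa4 passed (-0.61 ± 0.14, edgeR adjusted p = 0.0318). By the same test 20 of the 38 genes had an unadjusted p under 0.05, against 1970 of all 11862 genes. Of all genes 1.29% were called higher and 2.73% lower. In 30 of the 38 genes the MitoPositive sample was the lower one in all 3 donors, and in 20 the arms did not overlap; over all genes 23.6% were lower in all 3 donors and 13.8% were lower without overlap. Ndufb7 (-0.53 ± 0.14) and Ndufa12 (-0.43 ± 0.12) came closest after Ndufa4, at adjusted p = 0.0535 and 0.0611 by edgeR. Membrane-arm genes had a median of -0.32 and core genes of -0.12.

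Among core genes in this spleen comparison, Ndufs8 was at -0.39 ± 0.12, Ndufv2 at -0.32 ± 0.11, Ndufs3 at -0.18 ± 0.11, Ndufv1 at -0.12 ± 0.18, Ndufs7 at -0.11 ± 0.13 and Ndufs1 at -0.0047 ± 0.13; Ndufab1 was at -0.39 ± 0.19. None of these passed. Of the 28 cycling genes 21 were lower in the MitoPositive arm, with a median of -1.71. Without cycling cells the median of the 38 genes was -0.28 and Ndufa4 still passed. Ndufa4 was called in 9 of 14 alternatives, at -0.68 to -0.53. The count was 0 without donor 1, 0 without donor 2 and 8 without donor 3. Of all genes 0.049%, 0.478% and 5.22% were called lower in these fits.

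**Figure D4:**
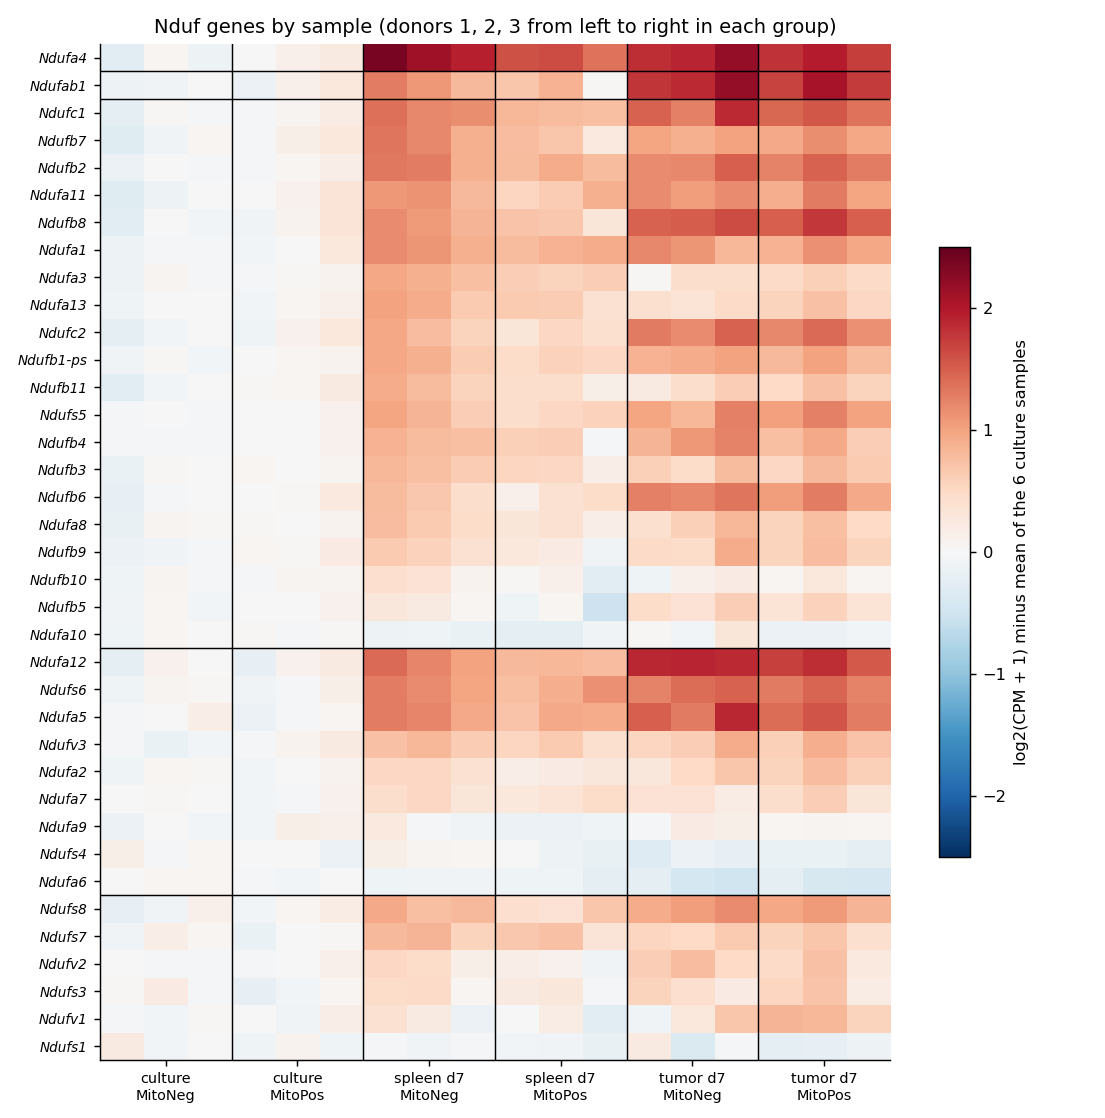
Log2(CPM + 1) of 37 of the 38 tested genes (rows, grouped by role: core at the bottom, then matrix arm, membrane arm, acyl carrier and Ndufa4) in the 18 samples (columns), relative to the mean of the 6 culture samples. Red marks higher levels; the MitoPositive spleen columns are mostly paler than the MitoNegative ones, and all 37 genes shown had negative fitted fold changes between them.

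Tumor samples were compared with spleen samples of the same host codes. In the MitoPositive arm 23 of 38 genes were higher in tumor and 0 lower, with a median of 0.43 against -0.07 over all genes; 25.7% of all genes were higher and 29.0% lower. In the MitoNegative arm 11 were higher and 2 lower, with a median of 0.19 against -0.06; 20.9% of all genes were higher and 22.8% lower. By DESeq2, 16 were higher and 2 lower there (median 0.28), against 23.5% and 19.7% of all genes. Of the 11, 10 (90.9%) were also called in the MitoPositive arm, 43.5% of its 23.

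Ndufab1 had the largest fold change in both arms. The acyl carrier serves mitochondrial fatty acid synthesis as well as complex I. Its spleen levels were 166, 145 and 119.7 CPM in the MitoNegative and 111, 125 and 69.6 CPM in the MitoPositive samples of donors 1, 2 and 3. Its tumor levels were 238, 251 and 318 CPM and 220.4, 286 and 230.5 CPM. Tumor exceeded spleen in every sample, by 1.02 ± 0.19 (edgeR adjusted p = 0.000746) and 1.25 ± 0.19 (edgeR adjusted p = 0.000126).

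Ndufa12 was at 214, 216 and 209.8 CPM in MitoNegative tumor samples, against 153, 133 and 116 CPM in spleen (0.76 ± 0.12). In the MitoPositive arm it was at 188, 207 and 167 CPM against 101, 101 and 98.1 CPM (1.00 ± 0.12). The tissues did not overlap in either arm. Ndufb8, at 246, 250.2 and 272 CPM and at 248, 301 and 249 CPM in tumor, was also above all spleen samples of its arm (0.60 ± 0.14 and 1.07 ± 0.14). Ndufb6, a membrane-arm subunit, was at 139, 134 and 147 CPM in MitoNegative tumor against 101, 92.5 and 78.8 CPM in spleen, and at 119, 142 and 111 CPM against 63.2, 75.5 and 79.1 CPM in the MitoPositive arm (0.72 ± 0.14 and 0.90 ± 0.14). Ndufc2 was higher by 0.65 ± 0.14 and 0.93 ± 0.15, from 192, 167 and 144 CPM to 242, 222 and 274 CPM and from 121, 139.6 and 129.8 CPM to 224, 261 and 218 CPM.

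The 2 genes lower in tumor in the MitoNegative arm were Ndufa3 and Ndufa13, a subunit also known as GRIM-19. Ndufa3 was at 219.5, 293 and 294 CPM in tumor against 421, 402 and 364 CPM in spleen (-0.46 ± 0.12, edgeR adjusted p = 0.00813). Ndufa13 was at 367, 348 and 384 CPM against 551, 524 and 433 CPM (-0.36 ± 0.12). For both, every tumor sample lay below every spleen sample. In the MitoPositive arm they did not pass (0.01 ± 0.12 and 0.12 ± 0.12).

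Core genes higher in MitoPositive tumor included Ndufv1 (0.78 ± 0.18), Ndufs8 (0.60 ± 0.12), Ndufv2 (0.52 ± 0.11) and Ndufs3 (0.42 ± 0.11). Ndufs8 was at 122, 132 and 114 CPM in those tumors against 83.8, 80.8 and 101 CPM in spleen. Ndufs1 (-0.04 ± 0.13) and Ndufs7 (0.01 ± 0.13) did not pass. In the MitoNegative arm Ndufv2 (0.35 ± 0.11) passed, and Ndufv1 (0.39 ± 0.20), Ndufs8 (0.31 ± 0.13), Ndufs3 (0.15 ± 0.12), Ndufs1 (0.06 ± 0.15) and Ndufs7 (-0.07 ± 0.13) did not. Ndufa4 passed in the MitoPositive arm (0.38 ± 0.14) and not in the MitoNegative arm (-0.07 ± 0.14). Ndufa5 (0.53 ± 0.17), Ndufc1 (0.40 ± 0.15), Ndufb5 (0.39 ± 0.14) and Ndufa10 (0.33 ± 0.12) were also higher in MitoNegative tumor. The 10 largest rises in the MitoPositive arm also held Ndufc1 (0.73 ± 0.15), Ndufs5 (0.69 ± 0.15), Ndufa5 (0.64 ± 0.17) and Ndufb5 (0.63 ± 0.14).

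Depth and other cells' RNA moved with the tissue. Median depth per cell was 9982.5 to 22568 UMIs in tumor and 5360.5 to 7376 in spleen samples. With each cell thinned to 3000 UMIs, 18 genes were higher in the MitoPositive arm (median 0.34), against 23.9% of all genes. In the MitoNegative arm 2 were higher and 1 lower (median -0.03), against 11.9% and 11.98% of all genes, and Ndufa10 turned to -0.08. The summed level of 10 myeloid markers, all present in each d7 group, was 433.5 to 574 CPM in MitoNegative tumor and 184 to 290.4 CPM in MitoNegative spleen samples, and 255 to 300.3 CPM against 230.2 to 361 CPM in the MitoPositive arm. Melanoma markers reached 1277 CPM in MitoNegative tumor of donor 3 and summed to 1.18 to 4.19 CPM in MitoPositive tumor, with Tyr at 0. Without cells holding 3 or more myeloid or melanoma UMIs, 3 genes were higher and 2 lower in the MitoNegative arm (median 0.02), against 16.3% and 17.7% of all genes. In that fit 17 were higher in the MitoPositive arm (median 0.31), against 23.8%. Without donors 1, 2 and 3 in turn, 6, 8 and 5 genes were higher in the MitoNegative arm and 0, 0 and 3 lower. Of all genes 16.7%, 16.8% and 14.4% were higher in these fits, and 17.7%, 17.0% and 13.7% lower.

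**Figure D5:**
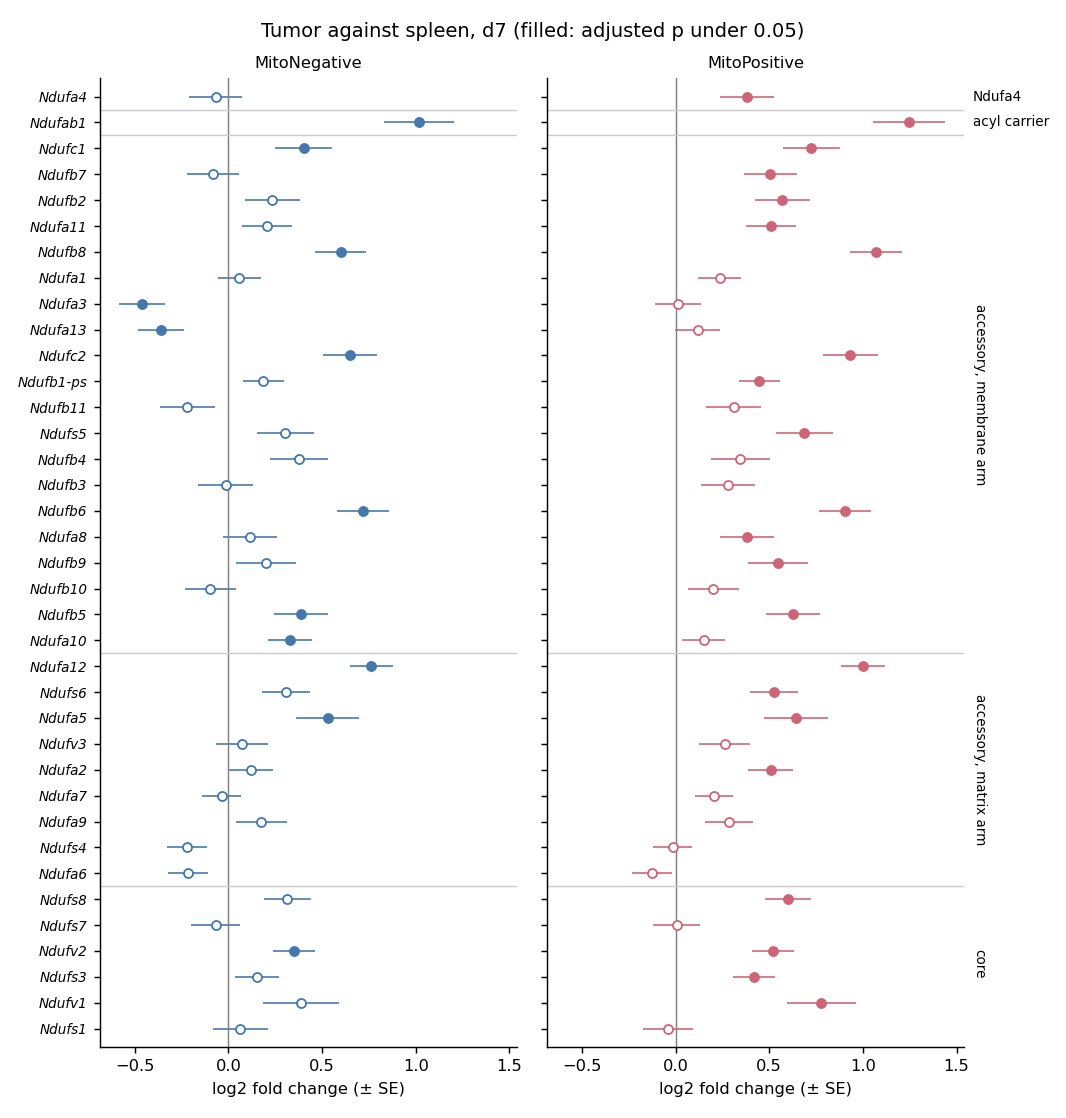
Log2 fold change of tumor against spleen at d7 (x axis, ± SE) for 37 of the 38 tested genes by role, in the MitoNegative (left) and MitoPositive arm (right). Filled points have an edgeR adjusted p under 0.05: 12 on the left, with Ndufa3 and Ndufa13 below 0, and 22 on the right.

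The tissue difference itself was not called as different between arms for any of these genes. By edgeR 0 were called and 7 had an unadjusted p under 0.05, against 1388 of all 11862 genes. By DESeq2 0 were called and 6 had an unadjusted p under 0.05, against 1290 of all genes. Fitted differences were positive for 35 of 38 genes, with a median of 0.26 against 0.02 over all genes, of which 0.0506% were called up and 0.0590% down. The values were 0.45 ± 0.20 for Ndufa4, 0.39 ± 0.27 for Ndufv1, 0.29 ± 0.17 for Ndufs8, 0.26 ± 0.16 for Ndufs3, 0.23 ± 0.26 for Ndufab1, 0.17 ± 0.16 for Ndufv2, 0.07 ± 0.18 for Ndufs7 and -0.10 ± 0.19 for Ndufs1. All 28 cycling genes had positive differences too, with a median of 1.63 and 0 called.

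Within the tumor no gene was called between the arms. By edgeR 0 were called and 0 had an unadjusted p under 0.05, against 1411 of all 11862 genes. By DESeq2 0 were called and 2 had an unadjusted p under 0.05, against 1235 of all genes. The median was -0.04 against 0.01 over all genes, of which 0.185% were called higher and 0.278% lower in MitoPositive cells. Ndufa4 was at 626, 693 and 589 CPM in MitoPositive and 636, 669 and 811 CPM in MitoNegative tumor samples (-0.16 ± 0.14), with overlap. The core genes given here ran from Ndufv2 (-0.15 ± 0.11) to Ndufv1 (0.27 ± 0.20), with Ndufs1, Ndufs8, Ndufs7 and Ndufs3 between them. Ndufab1 was at -0.16 ± 0.18. Leaving out a donor moved the median from -0.11 (without donor 2) to 0.12 (without donor 3), while the median over all genes was 0.05 and 0.03.

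In culture, right after the sort, no gene passed between MitoPositive and MitoNegative cells in fits without a donor term. By edgeR 0 were called and 8 had an unadjusted p under 0.05, against 2662 of all 11421 genes. By DESeq2 0 were called and 8 had an unadjusted p under 0.05, against 1892 of all genes. Of the 38 genes 32 had positive fold changes, including all 20 membrane-arm genes, with a median of 0.11 against -0.01 over all genes; 6.00% of all genes were called higher and 3.56% lower. The values ran from -0.10 ± 0.09 (Ndufs3) to 0.34 ± 0.11 (Ndufa11). Ndufa4 was at 0.27 ± 0.10 and Ndufab1 at 0.21 ± 0.11. Other core genes lay between -0.06 ± 0.10 (Ndufs1) and 0.16 ± 0.10 (Ndufs8), with Ndufs7, Ndufv1 and Ndufv2 in between. In 18 genes the MitoPositive sample was higher in all 3 donors, against 21.0% of all genes. In 4 it was higher with no overlap between arms, against 12.4% of all genes.

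Pairing the culture samples by donor changed this count. With donor as a replicate block, 12 genes were called higher in MitoPositive cells: Ndufa11, Ndufa4, Ndufb7, Ndufb8, Ndufb11, Ndufc2, Ndufb9, Ndufv3, Ndufa1, Ndufb6, Ndufc1 and Ndufab1. Their fold changes were 0.18 to 0.33. In that fit 12.2% of all genes were called higher and 9.03% lower. Of the 28 cycling genes 24 were higher in MitoPositive cells; without cycling cells the median of the 38 genes was 0.10. Thinned to 3000 UMIs per cell it was 0.03, and with a donor left out it was 0.06 to 0.16. Myeloid markers summed to 89.2 to 112.6 CPM in MitoPositive and 65.3 to 77.9 CPM in MitoNegative culture samples. Without cells holding myeloid or melanoma RNA the median was 0.05 and 26 of 38 genes were positive. With the alternative hashtag map (1 to 3 MitoPositive) it was -0.12 and 2 of 38 genes were positive. Under that map 0 of all 11421 genes were called higher and 0 lower. By edgeR 385 had an unadjusted p under 0.05, against 2662 with the map used.

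Other genes of complex I and its neighbours were read between culture and spleen as well. Of the 7 mitochondrially encoded subunits, 2 rose (mt-Nd4l 1.42 ± 0.11 and mt-Nd3 0.85 ± 0.13) and 3 fell (mt-Nd6 -1.09 ± 0.11, mt-Nd5 -0.71 ± 0.11 and mt-Nd4 -0.37 ± 0.11) in the MitoNegative arm, with a median of -0.21. MitoPositive cells had 2 that rose and 2 that fell, with a median of -0.09. Of 18 assembly factor genes 7 rose and 4 fell in the MitoNegative arm (median 0.18), led by Ndufaf8 (1.28 ± 0.11), and 4 rose and 1 fell in the MitoPositive arm. Of the 4 genes of complex II, which passes electrons from succinate to ubiquinone, 1 rose in each arm: Sdhb, an iron-sulfur subunit (1.15 ± 0.14 and 0.48 ± 0.15). No test compared these lists with the nuclear subunits.

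Among 10 regulators of nuclear respiratory genes, 9 were tested between culture and spleen. The coactivator gene Pprc1 (1.70 ± 0.18 and 1.88 ± 0.18), Myc (1.01 ± 0.22 and 1.17 ± 0.23) and Esrra (0.76 ± 0.15 and 0.99 ± 0.17) rose in the MitoNegative and MitoPositive arm, and Tfam (0.30 ± 0.11) in the MitoNegative arm. Nrf1 fell by 0.29 ± 0.10 and 0.45 ± 0.11. In tumor against spleen, Esrra was lower in both arms (-1.17 ± 0.25 and -1.41 ± 0.21), as was Ppargc1b (-1.96 ± 0.39 and -1.91 ± 0.27), while Gabpb1 was higher (0.75 ± 0.16 and 1.09 ± 0.15). None of the 9 differed between arms in spleen, tumor or culture.

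Transcript lengths of the 39 genes were 382 to 2625.5 nt (median 838 nt). Between culture and spleen in the MitoNegative arm, the 12 genes under 600 nt had a median log2 fold change of 1.06, against 0.11 for 538 other genes of that length. The 7 genes from 600 to under 800 nt had a median of 0.94, against 0.36 for 559 others, and the 7 from 800 to under 1000 nt 1.04, against 0.29 for 550 others. The 8 genes from 1000 to under 2000 nt had a median of 0.42, against 0.23 for 3201 others, and the 4 of 2000 nt or more 0.70, against -0.06 for 7782 others. MitoPositive cells had medians of 0.60, 0.55, 0.59, 0.16 and 0.41 in these classes, against 0.02, 0.20, 0.13, 0.08 and -0.05. In all 5 classes and both arms the median of these genes was above that of the other genes. Fold changes did not fall steadily with length; across the 38 genes, which come from the same libraries, Spearman's correlation was -0.28 and -0.29.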

How the data were processed

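Per the file headers and the submitters' processing notes, the authors counted UMIs with Cell Ranger 7.0.0 (mm10, GRCm38; Seurat 4.0.5 is also named); the deposited matrices are raw counts per gene and barcode, with hashtag counts, and are not split by sample. Strand use and the handling of reads shared by near-identical gene copies are not given in the sources used here.

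Barcodes with at least 500 genes and under 15% mitochondrial UMIs (17458 of 18092) were given to their top hashtag if it had 10 or more UMIs and 3 times the next (16404), and needed 1 Cd3d, Cd3e or Cd3g UMI (16075). This ratio removes doublets in which the top hashtag falls short of 3 times the next, and doublets within a hashtag were not called. The alternative hashtag caller HTODemux gave other cell numbers, lower in some samples and higher in others. MitoNegative spleen of donor 1 had 527 in place of 3380 cells, and MitoPositive spleen of donor 2 had 891 in place of 2242. MitoNegative tumor of donor 1 had 76 in place of 30. Which assignment is right was not tested. The cycling limit is a cut through a range: 962 cells lay between 0.2% and 0.4%.

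UMIs were summed per sample and tested with edgeR 4.0.16 in R 4.3.3 (filterByExpr, TMM, quasi-likelihood): culture with 6 samples and no donor term, d7 with 12 samples and donor as a block, spleen against culture with all 18 and donor as a block. The SE is the absolute fold change over the square root of edgeR's F. CPM are UMIs per 1000000 of the sample total, before TMM. The code was tested on simulated counts. Samples of a donor come from the same mouse, which pairs them. Their deviations from group means correlated at 0.07 to 0.23 in culture and -0.08 to 0.15 at d7. Samples of different donors correlated at -0.21 to 0.03 in culture and -0.17 to 0.13 at d7. The main culture fit leaves this pairing out. Precision for single genes is set by the smallest samples, of 30 and 48 cells.

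Genes were named by rule: all called, or the 10 largest fold changes, plus the core subunits, Ndufa4, Ndufa4l2 and Ndufab1 everywhere; per-sample values are given for up to 6 called genes with the smallest p per comparison. Values of 1 gene of the list are not reported here, and it is not drawn in the plots by gene; counts, medians and sums over the list include it. Members, roles and lists were chosen with earlier results of these data known. Roles and lists were not tested as sets. Transcript lengths are medians over GENCODE vM21 basic transcripts (GRCm38). Alternatives were another hashtag map, HTODemux (Seurat 5.3.0), DESeq2 1.42.0, its size factors, no count filter, thinning, other cell filters, left-out donors and small samples, the donor block and smaller fits; the second hashtag map in the spleen against culture fit was added after seeing the data.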

Additional observations from a re-analysis of the deposited data

Results flagged for a closer look

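For 5 of the nuclear complex I genes the change from culture to d7 spleen differed between the arms by the test of that difference (edgeR), with smaller rises in MitoPositive cells. The differences in log2 fold change were -0.91 for Ndufa4, -0.80 for Ndufb7, -0.72 for Ndufa11, -0.70 for Ndufb8 and -0.65 for Ndufc1. Over 14 alternatives the difference stayed negative, and was called in 11 for Ndufa4, 6 for Ndufb7, 6 for Ndufa11, 3 for Ndufc1 and 2 for Ndufb8. Among these, the other culture hashtag map with no replicate block, was added after seeing the data: it called 0 of the 38 genes, and the differences were -0.48 for Ndufa4, -0.35 for Ndufb7, -0.19 for Ndufa11, -0.20 for Ndufb8 and -0.30 for Ndufc1. Without cycling cells the median of the 38 genes was -0.39, against -0.41 with them, but fewer of the 38 genes passed, as given above. The part of library and host in these differences was not tested.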

How the results depend on the processing

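Counts of genes called depended on the processing mainly where few passed. In culture the count was 0 and became 8 with no count filter, 12 with donor as replicate block, and 0 to 2 with a donor left out. Of all genes 5.325%, 12.2% and 0.253% to 6.675% were called higher in those fits. For the arms in spleen, 1 became 3 by DESeq2, 2 with its size factors, 7 with no count filter, 0 with HTODemux, 4 without myeloid or melanoma RNA, 0 without the replicate block, 0 to 8 with a donor left out, 0 without samples under 50 cells and 12 with only those 6 samples. Of all genes 2.73% were called lower in the main fit. In the fits just listed, in order, it was 3.06%, 2.70%, 3.075%, 0.186%, 5.19%, 2.76%, 0.049% to 5.22%, 1.85% and 6.29%. For tumor against spleen in MitoNegative cells, 13 became 3 after thinning (where the median turned to -0.0328 and Ndufa10 to -0.0774), 5 without myeloid or melanoma RNA, 5 with only those samples and 6 to 8 with a donor left out. With only those samples, 15.4% of all genes were higher and 17.6% lower. For the difference of tissues 0 became 2 with no count filter, against 2.09% of all genes called up and 1.63% down. For spleen against culture in MitoPositive cells, 25 became 9 to 30 with a donor left out. For the difference between arms of that change, 5 became 3 by DESeq2, 2 with its size factors, 10 with no count filter, 1 with HTODemux, 1 after thinning, 1 without cycling cells, 1 without the Cd3 rule, 3 without myeloid or melanoma RNA, 0 to 12 with a donor left out, 2 without small samples and 0 with the other hashtag map and no replicate block (added after seeing the data; the counts for each arm then were 31 and 27). For these changes from culture to spleen, the share of all genes called is not given for every fit. Such counts cannot be read as shifts of these genes alone. The cause of these shifts was not tested. DESeq2 also moved the split over all genes to 267 higher and 363 lower (main 153 and 324) between spleen arms, and to 371 and 615 (main 253 and 664) for that difference. HTODemux gave 50 and 21 between spleen arms. DESeq2 turned the larger side in MitoNegative cells, to 3491 higher and 3926 lower between culture and spleen (main 4028 and 3471) and to 2787 and 2335 for the tissues (main 2480 and 2708). The replicate block alone moved no other count by over 1.5 times. Thinning left out 1 to 335 cells per sample. Of 2194 values of single genes under alternatives, 194 lost and 24 gained a call, and 1 called value changed sign (Ndufa10, above).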
